A study of Rattus norvegicus with 6 samples.

Results

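10 genes that take up, store, export or sense iron in the liver were examined in rats dosed with a flame retardant and in rats given the vehicle. They are Hamp, Hfe, Tfr2 and Bmp6, which make or control the iron hormone hepcidin, Tf, Tfrc and Slc39a14, which carry iron into cells, Slc40a1, which lets it out, and Fth1 and Ftl1, which store it. Their probes were found by matching the RefSeq transcript that each array probe carries to the gene symbol, which gave 26 probes for 10 genes, of 61657 non-control probes and 27642 genes tested. All 26 probes passed the filter on dim signals and none was saturated or flagged as an outlier on any of the 6 arrays.

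The livers came from male Sprague-Dawley rats, an outbred stock, bought at 5 weeks of age. One group received corn oil and the other tris(2-chloroethyl) phosphate (TCEP), a chlorinated organophosphate, at 400 mg per kg per day, with 3 animals per group, 1 array per animal and no other agent or allele. The labels conflict on the duration, with 9 weeks in the treatment protocol and 28 days in the design text. Values are log2 signals relative to the 75th percentile of the same array, so that 0 is a signal at that percentile, and they compare animals for 1 probe, not the abundance of different genes. Whole liver was measured, so fewer cells of a type and less RNA per cell cannot be told apart.

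Hepcidin is a peptide that hepatocytes secrete. It binds ferroportin, the product of Slc40a1 and the known iron exporter of mammalian cells, and causes its degradation, so that iron stays inside macrophages, hepatocytes and the gut lining. The hepatocyte adjusts Hamp transcription to iron: endothelial cells of the sinusoids release Bmp6, hemojuvelin (Hjv) acts as co-receptor, SMAD proteins carry the signal to the nucleus, and Hfe and Tfr2 report the iron load of transferrin. Inflammation raises Hamp by a separate route through IL6 and STAT3. Ferritin and transferrin receptor are further controlled after transcription by iron regulatory proteins, which block ferritin translation and stabilise Tfrc mRNA when iron is scarce.

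Because both routes meet on the Hamp promoter, its sequence is shown before the values. RefSeq promoter windows of rat assembly GRCr8 were found for 6 of the 10 genes. The stretch below covers bases 250 to 51 before the annotated start of Hamp, chr1:95300322-95300521 on the minus strand, 5′ to 3′. Capitals mark GGCGCC, the core of the BMP response element, and a match to TTCNNNGAA, the letters of a STAT site.

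Hamp: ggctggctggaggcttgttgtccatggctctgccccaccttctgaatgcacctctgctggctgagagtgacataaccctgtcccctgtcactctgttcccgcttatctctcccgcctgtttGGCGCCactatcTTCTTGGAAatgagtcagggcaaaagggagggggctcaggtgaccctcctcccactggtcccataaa

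The BMP core lay 129 to 124 bases and the STAT match, TTCTTGGAA, 117 to 109 bases before the annotated start. Searched on both strands of the 250 bases before each start, GGCGCC was present in 8.695% and TTCNNNGAA in 7.667% of 33469 rat windows. Both occurred together in 0.379% of windows, and within 10 bases of each other in 0.0269%, which is 9 windows with that of Hamp among them. Among the other 5 members with a window, GGCGCC was also found in that of Tfrc, and TTCNNNGAA in none. The core of a HIF site, ACGTG, occurred in the window of Tfrc and in 16.57% of all windows. A TATA box, TATAAA, was found in the window of Tf and in 12.93% of all. The core of an antioxidant response element, TGACNNNGC, had no match in the members and was in 10.08% of windows. The E-box searched, CACGTG, which contains the HIF core, also had no match in them and was in 5.593%. A match describes letters only.

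Across the array, 0 of 27642 genes (0%) met the threshold of 0.05 after Benjamini-Hochberg adjustment in limma, and 9.2% had an unadjusted p under 0.05. The values of the dosed and vehicle animals did not overlap in 17.4% of genes, 10.3% with TCEP higher and 7.06% with TCEP lower. Among the 10 iron genes 0 passed the adjusted threshold. Hfe was the 1 member with an unadjusted p under 0.05, and 3 members had groups that did not overlap, Hfe higher and Tf and Tfr2 lower with TCEP. Over single probes the backgrounds were 0% adjusted, 8.94% unadjusted and 16.9% not overlapping, and the members again gave 0, 1 and 3 of 26. The members' counts are therefore close to the background of the array. Their median log2 difference was 0.08, with 7 of 10 means higher, beside a median of 0.0048 and 50.9% higher means over all genes tested. Bmp6 is among the higher means, yet it passed the filter only through the TCEP group, so its direction carries no weight in this count. With only genes well above background on all 6 arrays, which leaves out Bmp6, the members' median was 0.07. Median centring of the arrays moved the median of all genes to 0.06 with 62.1% of means higher, and the members' median to 0.14. Without corn oil replicate 1 the members' median was -0.06.

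Between 57.2% and 64.4% of probes per array were well above background, lowest in corn oil replicate 2. That array lay alone on a slide and was scanned 23 days after the others. Corn oil replicates 1 and 3 shared a slide and the TCEP arrays shared another, so slide and treatment cannot be told apart. All 12 hepatocyte markers examined, albumin (Alb), transthyretin (Ttr) and the liver factor Hnf4a among them, were well above background on all 6 arrays.

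**Figure D1:**
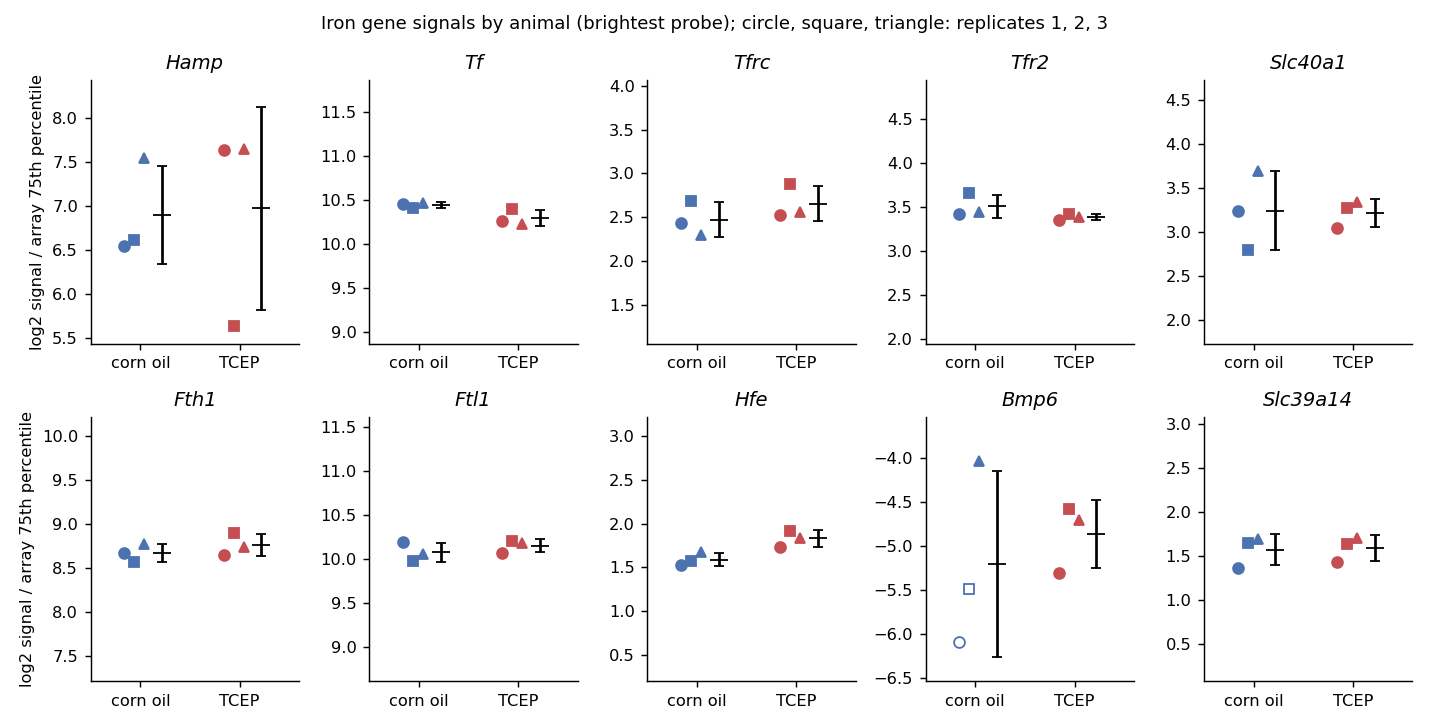
Log2 signal relative to the array's 75th percentile (vertical axis, the same span in every panel) for each iron gene in the corn oil and TCEP animals, by the brightest probe; bars give mean ± SD of 3 animals, and open symbols mark arrays on which the probe was not well above background. Hamp and Bmp6 spread over 2.01 and 2.06 log2 units, while Tf and Ftl1 span 0.24 and 0.23.

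Hamp, which encodes hepcidin, varied far more between animals than between treatments. Its log2 signals were 6.54, 6.61 and 7.54 in the corn oil livers and 7.63, 5.63 and 7.65 in the TCEP livers. 3 livers, corn oil replicate 3 and TCEP replicates 1 and 3, lay close together at the top, and TCEP replicate 2 was the lowest, so the groups overlapped fully. The highest and the lowest liver differed 4.03-fold. The group means were 6.90 ± 0.56 and 6.97 ± 1.16 (SD, 3 animals per group). The log2 difference was 0.07 ± 0.60 (SE), a 1.05-fold ratio with a 95% confidence interval from 0.384 to 2.89. The adjusted p was 0.980 in limma, and at this spread between animals any change inside that interval remains compatible with the values.

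The spread of Hamp within groups, a residual SD of 0.909, was larger than that of 98.4% of all genes. With so wide a spread the sign of the difference turned when any of 4 single arrays was left out. With corn oil replicate 1, 2 or 3 left out it was -0.10, -0.07 and 0.40. It was -0.26 without TCEP replicate 1 and again without TCEP replicate 3, and 0.74 without TCEP replicate 2 (unadjusted p = 0.0712, adjusted p = 0.761 in limma). With quantile normalization it was -0.017.

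Upstream of Hamp, the iron sensors gave small differences of opposite sign. Hfe encodes a protein related to MHC class I that associates with the transferrin receptors. Its brighter probe read 1.52, 1.58 and 1.67 in corn oil and 1.74, 1.92 and 1.83 in TCEP, so that every TCEP liver lay above every corn oil liver. The log2 difference was 0.24 ± 0.10 (SE), a 1.18-fold ratio with an interval from 1.00 to 1.39 (limma, unadjusted p = 0.0483, adjusted p = 0.539). The second probe of Hfe read -0.51, -0.50 and -0.33 against -0.38, -0.10 and -0.27, with a difference of 0.19 ± 0.11 (SE) and groups that overlapped (unadjusted p = 0.133). Both probes thus ran the same way, at r = 0.954 over the 6 arrays.

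The unadjusted p of Hfe lay at the edge of 0.05. It was 0.130, 0.102 and 0.0404 without corn oil replicates 1, 2 and 3, and 0.0514, 0.155 and 0.101 without TCEP replicates 1, 2 and 3. The sign stayed positive in all 17 alternatives fitted by gene, with log2 differences from 0.19 to 0.30. Where groups do not overlap, leaving out 1 array cannot turn the sign. Changing the filter, the moderation or the replicate block, or keeping outlier-flagged spots, could not move the difference from 0.24. The deposited values repeat the same scaling. The count of 17 therefore says little about stability.

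Tfr2, the transferrin receptor of hepatocytes that acts as a sensor more than as a carrier, read 3.42, 3.66 and 3.44 in corn oil and 3.35, 3.42 and 3.38 in TCEP. The groups did not overlap, yet corn oil replicate 1 and TCEP replicate 2 were 3.42 each after rounding. The difference was -0.12 ± 0.10 (SE), with a 95% interval of the ratio from 0.774 to 1.09 (adjusted p = 0.729, limma). It was -0.05 without corn oil replicate 2, the array scanned on the later day.

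Bmp6, the ligand that signals iron load, was near the detection limit. Its single probe was well above background on 1 of 3 corn oil and 3 of 3 TCEP arrays, and it passed the filter through the TCEP group. The signals were -6.09, -5.49 and -4.02 in corn oil and -5.30, -4.58 and -4.70 in TCEP. The highest of the 4 that were well above background was a vehicle animal, corn oil replicate 3. The difference was 0.34 ± 0.53 (SE; limma, adjusted p = 0.864), with a 95% interval of the ratio from 0.520 to 3.08. Leaving out corn oil replicate 1 gave -0.11, with corn oil replicate 2 still not well above background. Without corn oil replicate 3 the corn oil group has no array on which the probe was well above background, so that fit shows no difference by itself. With normexp background correction, which compresses dim signals, the difference over all 6 arrays was 0.07. At this signal no order of the animals can be read from the 2 corn oil arrays that did not reach it.

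Tf, the plasma carrier of iron made by hepatocytes, was steady. By its brighter probe the signals were 10.45, 10.40 and 10.47 in corn oil and 10.26, 10.39 and 10.23 in TCEP. The groups touched without overlapping, since TCEP replicate 2 lay just below the lowest corn oil value. The difference was -0.15 ± 0.09 (SE), a 95% interval of the ratio from 0.774 to 1.05 (adjusted p = 0.651, limma). The second probe gave -0.05 ± 0.09, and there TCEP replicate 2, at 10.42, was the highest of all 6. With median centring of the arrays the difference of the brighter probe was -0.09.

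Tfrc, the receptor by which most cells take up transferrin, had 3 probes. The brightest read 2.43, 2.69 and 2.30 in corn oil and 2.53, 2.88 and 2.57 in TCEP. TCEP replicate 2 was highest, corn oil replicate 2 was next, and the groups overlapped. The differences of the 3 probes were 0.18 ± 0.15, 0.15 ± 0.13 and -0.12 ± 0.13 (SE), so the dimmest probe ran against the others. None passed the threshold (limma, adjusted p = 0.737, 0.753 and 0.796 over all probes). Without TCEP replicate 2 the brightest probe gave 0.07.

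Slc39a14 encodes ZIP14, which takes up iron that is not bound to transferrin. By its brightest probe the signals were 1.37, 1.65 and 1.70 in corn oil and 1.43, 1.64 and 1.71 in TCEP, so both groups covered the same range. The difference was 0.02 ± 0.13 (SE), a ratio with a 95% interval from 0.810 to 1.27 (adjusted p = 0.976, limma). The other 3 probes gave -0.03 ± 0.11, -0.23 ± 0.17 and -0.11 ± 0.19, and correlations between pairs of the 4 probes ran from -0.71 to 0.92 over the 6 arrays. The probes of this gene therefore did not rank the animals alike. The sign was negative in 6 of 17 alternatives. One of these was the mean over the 4 probes, and by the brightest probe it was -0.08 without corn oil replicate 1, -0.0027 without TCEP replicate 2 and -0.04 without TCEP replicate 3.

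Both ferritin genes were close to level between groups. Fth1, the heavy subunit that oxidises iron for storage, read 8.67, 8.56 and 8.77 in corn oil and 8.65, 8.90 and 8.73 in TCEP. TCEP replicate 2 was highest, corn oil replicate 2 lowest, and the groups overlapped. The difference was 0.09 ± 0.11 (SE), with a 95% interval of the ratio from 0.883 to 1.29 (adjusted p = 0.820, limma). Ftl1, the light subunit that helps form the iron core, read 10.19, 9.98 and 10.06 against 10.07, 10.21 and 10.19. Its difference was 0.08 ± 0.10 (SE), with an interval from 0.890 to 1.25 (adjusted p = 0.833).

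Every ferritin probe had a higher mean in the TCEP group, by 0.04 to 0.17 for the 4 probes of Fth1 and by 0.05 to 0.14 for the 5 of Ftl1. Probes of 1 gene read the same RNA and do not add replicates. Corn oil replicate 2, the array scanned later, gave the lowest value of all 6 arrays with each of the 5 Ftl1 probes. Without it the differences by the brightest probe were 0.04 for Fth1 and 0.03 for Ftl1. Ferritin genes have many processed pseudogenes, so signal from near-identical copies cannot be told apart here.

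Slc40a1, the iron exporter that hepcidin acts on, read 3.24, 2.79 and 3.69 in corn oil and 3.04, 3.27 and 3.34 in TCEP. Corn oil replicate 3 was the highest and corn oil replicate 2 the lowest, so the vehicle animals enclosed all the dosed ones. The difference was -0.03 ± 0.23 (SE), with a 95% interval of the ratio from 0.662 to 1.46 (adjusted p = 0.982, limma). It was 0.20 without corn oil replicate 3, 0.06 without TCEP replicate 1, and -0.25 without corn oil replicate 2. Median centring and normexp gave 0.033 and 0.037. The other 2 probes gave -0.19 ± 0.17 and 0.04 ± 0.22, and the 3 probes correlated at 0.81 to 0.98 over the 6 arrays, with corn oil replicate 3 highest in each. Macrophages carry much of the ferroportin of liver. The summed level of 13 Kupffer cell and macrophage markers ranged from 6.72 to 8.00 in corn oil, highest in replicate 3, and from 7.24 to 7.51 in TCEP, and its part in the Slc40a1 values was not tested.

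**Figure D2:**
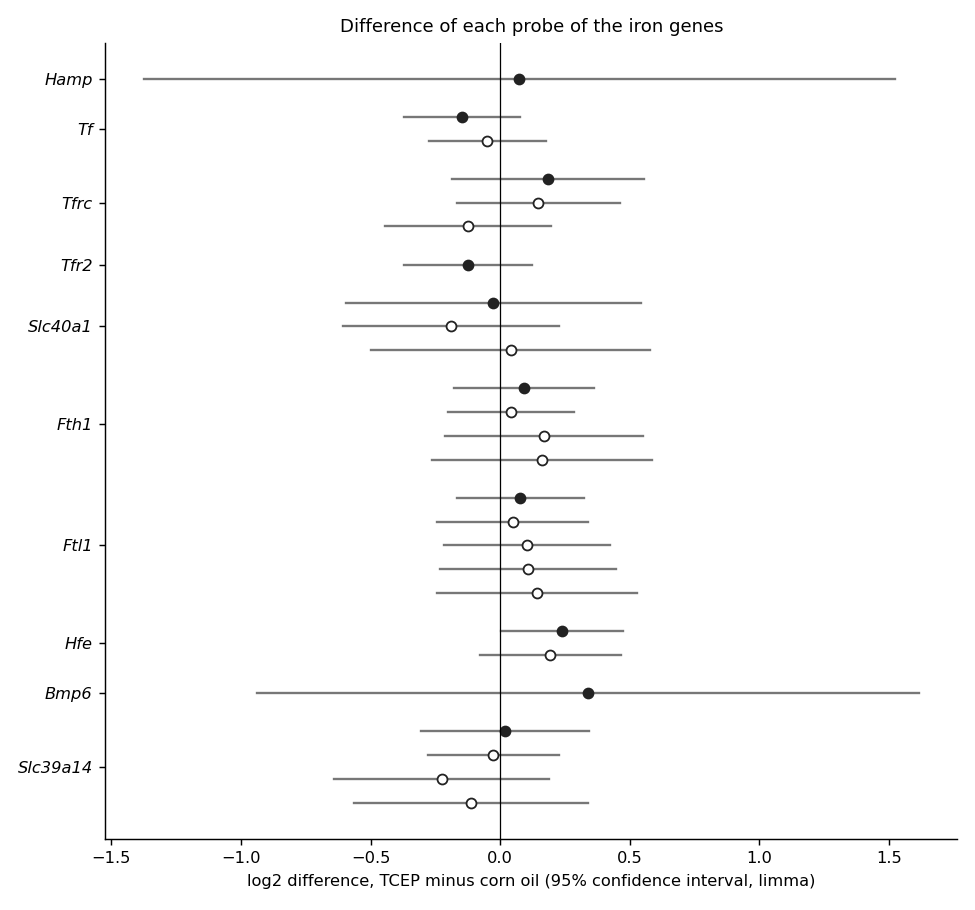
Log2 difference between TCEP and corn oil (horizontal axis) for each of the 26 probes of the iron genes, with 95% confidence intervals from limma; points to the right of 0 are higher with TCEP. The interval of 1 probe, the brighter one of Hfe, excludes 0, and those of Hamp and Bmp6 are the widest.

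Hamp was next set against the genes of the routes that control it, animal by animal, since its signals differed 4.03-fold between livers. The BMP-SMAD list held 8 tested genes, the inhibitors of differentiation Id1 to Id4, the inhibitory SMADs Smad6 and Smad7, Atoh8, a transcription factor known to act on Hamp, and Bambi, a decoy receptor. As with the iron genes, 0 of the 8 passed the adjusted threshold between treatments, 0 had an unadjusted p under 0.05, and in 0 did the groups not overlap. Their median difference was -0.03, with 3 higher and 5 lower.

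Id1, a standard readout of BMP signalling, ranked the 6 animals exactly as Hamp did. Its signals were -2.72, -2.09 and -1.26 in corn oil and -1.20, -2.78 and -1.08 in TCEP, a 3.25-fold range. Corn oil replicate 3 and TCEP replicates 1 and 3 were again the 3 highest and TCEP replicate 2 the lowest. Pearson's r with Hamp was 0.942 and Spearman's rho 1 over 6 arrays (exact permutation test over all pairings, two-sided p = 0.0028 for each, the smallest 6 arrays can give; adjusted p = 0.0222 over the 8 genes). It was 0.951 without TCEP replicates 2 and 3, the 2 arrays farthest from the Hamp median, and 0.958 for deviations from the group means. It was 0.919 with quantile normalization and 0.933 with normexp. Without the 2 farthest arrays the Hamp values form close pairs, 6.54 with 6.61 and 7.54 with 7.63, so a large r of either sign is easily reached. Hfe gave 0.960 and Gdf2 -0.990 there, so the 0.951 does not set Id1 apart. Among all genes tested, 99.9% had a lower r over the 6 arrays. The adjustment covered these 8 genes alone, not the 19 IL6-STAT3 genes and 9 other iron genes tested in the same way. The list was also chosen with earlier results of these data known, so the adjusted p describes this list only.

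Id3 read 2.15, 2.77 and 2.71 in corn oil and 2.83, 1.91 and 3.25 in TCEP. TCEP replicate 3 was highest and TCEP replicate 2 lowest, as for Hamp. Its r with Hamp was 0.859 and its rho 0.943 (exact permutation p = 0.0306 and 0.0167, adjusted p = 0.122 and 0.0667 over the 8 genes), and r was 0.617 without the 2 farthest arrays. Smad7, which feeds back on the receptors, read 1.56, 1.08 and 1.38 against 1.49, 0.81 and 1.71. Its r of 0.794 and rho of 0.657 did not pass (exact permutation p = 0.0806 and 0.175), and without the 2 farthest arrays r was 0.276. Id2 gave an r of 0.746 and a rho of 0.657 (exact permutation p = 0.156 and 0.175), with 0.373 on the 4 remaining arrays. The relations of Smad7 and Id2 thus rest on the 2 farthest arrays. The other 4 targets gave an r between -0.287 (Smad6) and 0.289 (Atoh8). Without the 2 farthest arrays all 4 ran against Hamp, at -0.980 (Id4), -0.934 (Smad6), -0.472 (Atoh8) and -0.429 (Bambi).

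In all, 4 of the 8 BMP-SMAD targets had an r above 0.7 with Hamp, beside 2.87% of the 27641 other genes, and 5 of the 8 were lowest in TCEP replicate 2, beside 10.3% of all genes. These genes were read from the same 6 arrays, so the RNA quality and scaling of each array are shared by every pair. Of the 19 tested genes of the IL6-STAT3 list 0 had an r above 0.7, with a median of -0.08 and a range from -0.52 to 0.40. The smallest exact permutation p in that list was 0.247 for r (Creb3l3) and 0.103 for rho (Orm1, rho -0.771). The list of hepcidin regulators and BMP ligands, receptors and signal carriers also gave 0 of 21, with a median of -0.20. Whether the 2 routes differ in their relation to Hamp was not tested.

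**Figure D3:**
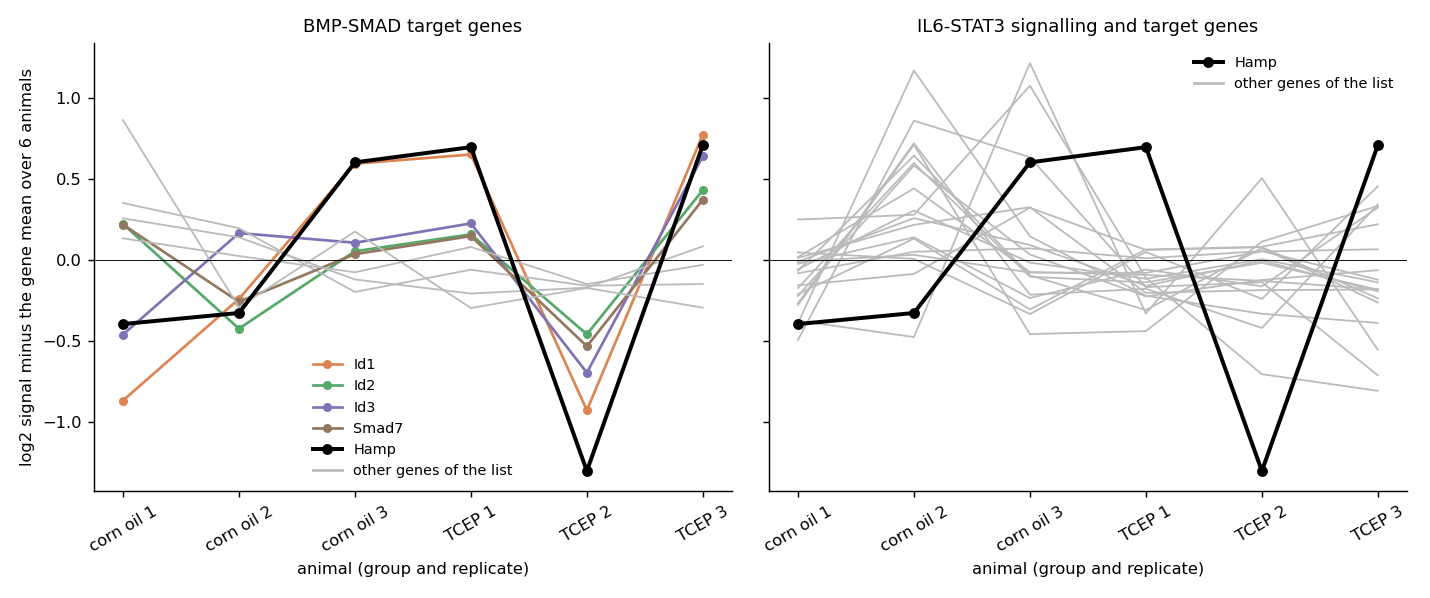
Log2 signal minus each gene's mean over the 6 animals (vertical axis) by animal (horizontal axis), with Hamp in black, BMP-SMAD targets on one side and IL6-STAT3 genes on the other; grey lines are the remaining genes of each list. Id1 follows Hamp through all 6 animals (r = 0.942), while no IL6-STAT3 gene has an r above 0.40.

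Markers of other cells were compared with Hamp in the same way. Of 13 Kupffer cell and macrophage markers 1 had an r above 0.7, Cd14, a co-receptor for bacterial lipopolysaccharide, at 0.982, and the list's median was 0.46. All 13 had a positive r, the lowest 0.126 (Mrc1). The median r was 0.52 for the BMP-SMAD list and -0.05 over all genes tested, so the macrophage list ran with Hamp nearly as much by median. Cd14 read 3.36, 3.45 and 3.88 in corn oil and 3.75, 3.05 and 3.80 in TCEP. Marco and Vsig4, which mark resident macrophages, were lowest in corn oil replicate 1, unlike Hamp, yet their r was 0.460 and 0.530. Of the 12 hepatocyte markers 0 had an r above 0.7, with a median of -0.36 and values from -0.946 (Asgr1) to 0.146 (Cps1). Asgr1, and Ttr at -0.892, ran against Hamp about as closely as Id1 ran with it. Without the 2 farthest arrays their r was -0.942 and -0.985. Their spans over the 6 arrays were 1.17-fold and 1.11-fold. The sinusoidal endothelial, erythroid, stellate and neutrophil lists each gave 0 genes above 0.7. The lowest r was -0.782 in the erythroid list (Hemgn, well above background on 5 of 6 arrays), -0.727 in the neutrophil list (S100a8), -0.690 in the endothelial and -0.638 in the stellate list. The part of any of these cells in the Hamp values was not tested.

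By likeness of pattern over the 6 arrays, the 4 named genes with the highest r with Hamp were Ptk2b (0.994), Cd14 (0.982), Vipr1 (0.978) and Lnpk (0.971), out of 10975 genes with a symbol. Their spans were small beside that of Hamp: 1.76-fold and 1.77-fold for Ptk2b and Cd14, and 1.12-fold and 1.15-fold for Vipr1 and Lnpk. They were picked for this likeness, so the values are a description.

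None of the other iron genes passed a test of its relation to Hamp. Over the 9 others r ran from -0.713 (Tfrc) to 0.250 (Slc40a1), and the smallest exact permutation p was 0.117, for Tfrc, with a rho of -0.314 (p = 0.564; adjusted p = 0.817 and 0.803 over the 9 genes). The value of Bmp6 in this range includes 2 arrays on which its probe was not well above background, so its relation to Hamp cannot be read.

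Around the members, the list of hepcidin regulators and BMP signalling had 21 tested genes, of which 6 had higher and 15 lower means with TCEP and 0 passed the adjusted threshold. The median was -0.07. Acvr2a, a type II activin and BMP receptor, was the 1 gene of 21 with an unadjusted p under 0.05, and 3 of 21 did not overlap, 2 higher and 1 lower. Both counts are below the 9.2% and 17.4% of all genes. Acvr2a read -1.33, -1.54 and -1.48 in corn oil and -2.03, -1.69 and -1.81 in TCEP, with no overlap and a difference of -0.39 ± 0.12 (SE; limma, unadjusted p = 0.0186, adjusted p = 0.509). Fgl1, a liver-secreted protein reported to bind BMP6, and Furin, the protease that cleaves prohepcidin, were the brightest of the list. Fgl1 differed by -0.51 ± 0.38 and Furin by -0.04 ± 0.10. Hjv, the co-receptor, gave -0.07 ± 0.21, and Tmprss6, the protease that cleaves it, -0.01 ± 0.13. The last 2 were added for their role after their values were seen. Il6 and 3 of the antagonists and carriers, Nog, Grem1 and Smad9, did not pass the filter.

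IL6-STAT3 genes were mostly lower with TCEP, 14 of 19 against 5 higher, with a median of -0.22 and 0 adjusted calls. Of these, 2 had an unadjusted p under 0.05, both lower, and 3 did not overlap, all lower, beside 9.2% and 17.4% of all genes, so both counts are near the background. A2m, a protease inhibitor of the rat acute phase, read 2.76, 2.79 and 3.59 in corn oil and 2.41, 1.81 and 1.71 in TCEP. The groups did not overlap, and the difference of -1.08 ± 0.29 (SE) corresponds to a 2.11-fold lower signal (limma, unadjusted p = 0.00934, adjusted p = 0.477). Socs3, which STAT3 induces and which feeds back on it, read -1.97, -1.77 and -1.66 against -2.19, -2.17 and -2.17, a difference of -0.38 ± 0.11 (SE; unadjusted p = 0.0130, adjusted p = 0.484). The list's median was -0.05 without corn oil replicate 2.

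The wider list of iron and heme handling had 40 tested genes, 24 higher and 16 lower, with a median of 0.03 and 0 adjusted calls. At an unadjusted p under 0.05 there were 2 higher and 2 lower, 10% of the list beside 9.2% of all genes, so this count too is near the background. Slc46a1, a carrier of folate and heme, read 2.39, 2.17 and 2.48 in corn oil and 2.52, 2.93 and 3.06 in TCEP, a 1.40-fold ratio (0.49 ± 0.17 SE; limma, unadjusted p = 0.0273, adjusted p = 0.521). Hmox2, the constitutive heme oxygenase, gave 0.24 ± 0.10 (unadjusted p = 0.0424). Lower were Ftmt, mitochondrial ferritin, by -0.41 ± 0.10 (unadjusted p = 0.00448, adjusted p = 0.443), and Lrp1, the receptor for heme bound to hemopexin, by -0.34 ± 0.13 (unadjusted p = 0.0383). Ftmt was dim, at -3.75, -3.62 and -3.77 in corn oil and -4.17, -4.04 and -4.17 in TCEP. The lowest signals called well above background lay between -5.45 and -4.38 by array. The groups did not overlap in any of the 4 named genes, as the rule for naming them required. Over the list of 40, 6 genes did not overlap with TCEP higher and 3 with TCEP lower, beside 10.3% and 7.06% of all genes.

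The iron regulatory proteins and the inducible heme oxygenase were further examined for their role, after their values were seen. Aco1 and Ireb2, the iron regulatory proteins, differed by 0.17 ± 0.15 and 0.11 ± 0.15, and Hmox1, induced by heme, by -0.13 ± 0.34. Cp, the ferroxidase of plasma, gave -0.29 ± 0.19. None passed the threshold (limma, adjusted p from 0.669 to 0.928). The list's median was 0.09 with median centring and -0.03 without TCEP replicate 2.

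**Figure D4:**
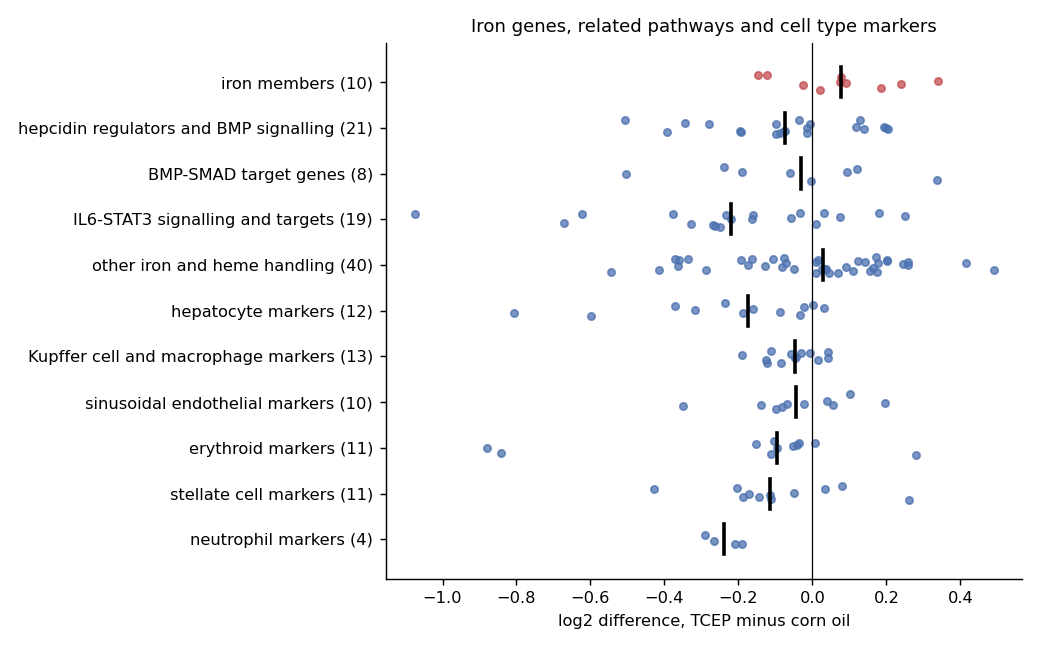
Log2 difference between TCEP and corn oil (horizontal axis) for every tested gene of each list (1 point per gene, brightest probe, with the number of genes in brackets) and the median of each list as a bar. The medians lie between -0.24 (neutrophil markers) and 0.08 (iron members), and no gene shown passed the adjusted threshold.

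Cell type markers gave 0 adjusted calls in any list. The median differences were -0.17 for 12 hepatocyte, -0.05 for 13 macrophage, -0.05 for 10 sinusoidal endothelial, -0.10 for 11 erythroid, -0.11 for 11 stellate and -0.24 for 4 neutrophil markers. The summed level of the hepatocyte markers was 12.50 to 12.58 in corn oil and 12.37 to 12.53 in TCEP, and that of the endothelial markers 6.0 to 6.4 and 6.1 to 6.3. Erythroid markers, which blood left in the tissue carries, summed to 9.96 to 10.61 in corn oil and 10.09 to 10.74 in TCEP. Neutrophil markers summed to 1.11 to 2.84 and 1.40 to 2.08, and stellate markers to 4.93 to 5.02 and 4.88 to 4.93. The stellate sums were the 1 set that did not overlap between groups, and only just. The lowest corn oil sum was 4.932 and the highest TCEP sum 4.930, and among single genes 17.4% did not overlap. The part of any of these cells in the iron gene values was not tested.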

How the data were processed

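Per the labels, Cy3-labelled liver RNA of 6 rats was run on Agilent arrays of 1 colour. The authors took spot intensity values and flags with Agilent Feature Extraction, version 10.7.1.1 per the file headers and 10.7 per the submitters' processing notes. The deposited processed signal is background-subtracted. The deposited value table holds a ratio, the processed signal over the array's 75th percentile, as read from its values, and its medians ran from 0.0953 to 0.103. Any further step by the authors is not given in the sources used here.

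Starting from the deposited intensity, log2 of the processed signal minus the array's 75th percentile was computed over 61657 non-control probes. The filter kept 37043 probes that were flagged well above background on each array of 1 group or both, and a gene is its kept probe with the highest mean signal. Symbols were matched by unversioned accession to RefSeq (GRCr8) for 27460 probes, and others keep their array name. The array design uses another build, so coordinates come from the RefSeq promoter table alone. A total of 64 outlier-flagged spots were dropped, none of a member.

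The 2 groups were compared with limma 3.58.1 under R 4.3.3 (lmFit, eBayes), two-sided, with p-values adjusted by Benjamini-Hochberg over all genes, or all probes for probe values, at 0.05. The labels speak of 3 animals per group, taken as replicates, and that number limits the precision. The fit was tested on simulated data. Correlations with Hamp used exact permutation over all pairings, across both groups, with p-values adjusted by Benjamini-Hochberg within each list separately.

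The members, gene lists and the rule for naming genes were chosen with earlier results of these data known. From each pathway list the text names up to 4 genes with an unadjusted p under 0.05 and no overlap, or else the 2 brightest, and the 4 genes most like Hamp; other named genes were chosen after their values were seen. Alternatives changed scaling, background correction, filter, probe summary, moderation, slide or replicate block, and the arrays included. Same-numbered animals did not deviate together (correlations -0.05, -0.16 and -0.02), so numbers were not taken as pairs.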

Additional observations from a re-analysis of the deposited data

How the results depend on the processing

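The iron members kept their direction in 153 of 169 fits under alternatives. Fits that changed only the filter, the moderation, the replicate block or the outlier-flagged spots returned each fitted member's difference unchanged. The deposited values use the same scaling and gave nearly the same differences. These fits could hardly turn a direction, so the share overstates stability. Hamp was -0.017 with quantile normalization and -0.26 to 0.74 with 1 array left out. Slc39a14 was -0.0052 with quantile normalization, -0.0072 with normexp, -0.086 as the mean over probes, and -0.082 to 0.10 with 1 array left out. Slc40a1 was 0.033 with median centring, 0.037 with normexp and -0.25 to 0.20 with 1 array left out, and Bmp6 -0.11 to 0.93. The last value, without corn oil replicate 3, is set against 2 arrays on which Bmp6 was not well above background and shows no difference by itself. Tf, Tfrc, Tfr2, Fth1, Ftl1 and Hfe kept their direction in all 17 alternatives each, the unchanged fits included.

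The number of members at an unadjusted p under 0.05 was 0 with quantile normalization, without a filter, with the mean over probes and with the replicate block, and 0 to 2 with 1 array left out (2 without corn oil replicate 3, Hfe and Bmp6, of which Bmp6 then has no detected corn oil value). With median centring 1 member had groups that did not overlap. Over all genes, 1605 (without TCEP replicate 3) to 3213 had an unadjusted p under 0.05 with 1 array left out, beside 2544 with all 6 arrays and 1903 with the replicate block. An adjusted p under 0.05 was reached by 0 genes under every alternative run, and the smallest was 0.058, without corn oil replicate 3. The causes of these shifts were not tested. Signal over background limits Bmp6 alone among the members. Normexp started from median spot signals.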
